A study of Mus musculus with 10 samples.

Results

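The 10 genes of the MHC class II pathway described here were the rows of the deposited count table named H2-Aa, H2-Ab1, H2-Eb1, Cd74, H2-DMa, H2-DMb1, H2-DMb2, H2-Oa, H2-Ob and Ciita, out of 46959 genes. They were chosen by name, with earlier results of these data known, and all 10 passed the filter on low counts in each fit. MHC class II molecules are pairs of an alpha and a beta chain that show peptides from endosomes to CD4+ T cells. H2-Aa and H2-Ab1 encode the chains of I-A, and H2-Eb1 encodes the beta chain of I-E. The invariant chain, encoded by Cd74, holds the peptide groove in the endoplasmic reticulum. H2-DM, made of H2-DMa with a beta chain from H2-DMb1 or H2-DMb2, exchanges the last invariant chain fragment for a peptide, and H2-DO, made of H2-Oa and H2-Ob, inhibits H2-DM in B cells. Ciita is the coactivator that switches these genes on through promoter-bound RFX, CREB and NF-Y. B cells, dendritic cells and macrophages express the pathway, and B cells shut it down as they become plasma cells.

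RNA-seq was done on 10 mouse libraries. Splenocytes depleted of CD43+ cells, a usual way to enrich resting B cells, were cultured for 2 days with 5 µg/ml of the B cell mitogen lipopolysaccharide (LPS). They came from wild-type mice with LPS (n = 2), wild-type mice with LPS and 200 ng/ml of the histone deacetylase inhibitor SAHA (n = 2), and KOKI mice (n = 2). The 2 days come from the growth protocol, whereas the description of the wild-type LPS and SAHA libraries holds D3. If D3 means a day of culture, culture time and SAHA cannot be told apart. The protocols name BLACK-6 animals as controls, and the labels do not spell out KOKI. For the KOKI cultures the treatment label names LPS with SAHA, whereas their titles and the design text name LPS, so KOKI was compared with both wild-type groups. The femoral RNA was extracted directly, without culture, from pools of 3 mice: 2 pools of mice lacking RAG2 and gamma c (control), 1 pool of KOKI mice lacking RAG2 and gamma c, and 1 pool of KOKI mice lacking RAG2. RAG2 is needed to rearrange antigen receptor genes, and gamma c is a shared chain of interleukin receptors. The titles number the wild-type cultures 1 and 2 with and without SAHA, but the labels do not say that a number marks an animal. The main tests did not pair cultures by number. The p-values reflect how far libraries of 1 group lay apart, which may be technical for the wild-type groups. The KOKI cultures differed in Xist and in the Y-linked gene Ddx3y, with 8 and 3610 counts in replicate 1 and 8499 and 20 in replicate 2, so they were not 1 animal sampled again.

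Total counts ran from 18614742 to 29314068 per library. The femoral samples carry the label B cells, yet of 8 B cell marker genes Ms4a1 (CD20) had 0 to 2 counts and Cr2 had 0 in all 4 femoral libraries. The summed TMM-normalised level of the 8 was 11.6 to 14.3 CPM (counts scaled to a library of 1000000) there, against 2619.5 to 3570.0 CPM in the splenic cultures. Macrophage and monocyte markers summed to 4374.9 to 6389.5 CPM in the femoral pools and to 16.1 to 52.9 CPM in the cultures. Neutrophil markers summed to 11836 to 19826 CPM in the femoral pools and to 0.898 to 4.63 CPM in the cultures. For erythroid markers the sums were 8738.4 to 12141 CPM and 2.92 to 14.3 CPM. The femoral samples are therefore called femoral pools here. KOKI replicate 2 stood apart by its counts of Xist, the RNA of the inactive X chromosome, against at most 9 in the other libraries. Both SAHA libraries stood apart by olfactory receptor genes. Of 1292 such genes, 451 had counts in SAHA replicate 2 and 126 in SAHA replicate 1, against 47 or fewer in the other libraries.

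The promoter sequences below are shown because class II genes are known for a conserved module of an X box, bound by RFX, an X2 box, bound by CREB, and a Y box, bound by NF-Y. RefSeq promoter windows (GRCm38.p6) were given for 7 of the 10 genes. In 6 of them an X box match, GCAAC or the spaced form listed below, came before the Y box core ATTGG. In H2-Aa and H2-Oa it was GCAAC without the spaced form. The share of all promoter windows with such a pair was not counted. Each line gives 80 bases, 5′ to 3′ on the gene's strand, placed so that the AAC of the X box starts at base 21. Capitals mark matches to GCAAC (X box core), AAC, any 2 bases and ATGATG (X and X2 boxes spaced together), TGACGTCA (a palindromic CREB site) and ATTGG, where GCAAC and the spaced form can share the letters AAC. Matches on the opposite strand are not in capitals.
H2-Aa, chr17:34287843-34287922, minus strand: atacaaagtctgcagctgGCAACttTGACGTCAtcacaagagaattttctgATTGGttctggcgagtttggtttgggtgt
H2-Eb1, chr17:34305758-34305837, plus strand: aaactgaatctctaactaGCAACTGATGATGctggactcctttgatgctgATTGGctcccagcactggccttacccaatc
H2-DMb1, chr17:34153079-34153158, plus strand: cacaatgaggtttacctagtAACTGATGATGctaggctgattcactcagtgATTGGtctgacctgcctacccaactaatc
H2-DMb2, chr17:34145108-34145187, plus strand: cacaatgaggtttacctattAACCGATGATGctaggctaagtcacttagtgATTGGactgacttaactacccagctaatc
H2-Oa, chr17:34092285-34092364, plus strand: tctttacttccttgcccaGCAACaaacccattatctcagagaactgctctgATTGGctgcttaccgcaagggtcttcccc
H2-Ob, chr17:34238800-34238879, plus strand: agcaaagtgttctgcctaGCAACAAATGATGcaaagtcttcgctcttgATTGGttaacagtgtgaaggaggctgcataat

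The distance from AAC to ATTGG was 28 bases in H2-Ob, 30 in H2-Eb1 and 31 in the other 4. The stretches of H2-DMb1 and H2-DMb2 were identical at 70 of 80 bases (87.5%). Searched on both strands in the 150 bases before each RefSeq start, ATTGG was in 24.5% of 32851 mouse promoter windows, GCAAC in 19.6%, TGACGTCA in 1.36% and the spaced form in 0.0791%. ATTGG and the spaced form stood together in 10 windows of 9 genes, 4 of which were H2-Eb1, H2-DMb1, H2-DMb2 and H2-Ob. The 2 windows listed for H2-DMa held neither ATTGG nor the spaced form, which says only that the letters are not in those windows. A match is a description of sequence. The RefSeq start lay downstream of the gene start in the deposited table by 1942 bases for H2-DMb2, 119 for H2-DMb1, 39 for H2-Oa, 4 for H2-Aa and 2 for H2-Ob, and upstream of it by 10 bases for H2-Eb1. The stretches printed for H2-DMb2 and H2-DMb1 thus lie inside the deposited gene spans.

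Levels are CPM after TMM normalisation over all 10 libraries, and levels of different genes were compared only per kb of exon. In the wild-type LPS cultures the invariant chain was the highest of the 10, with a mean of 885 CPM per kb, which ranked 140 among 24279 genes with counts. H2-Aa at 517, H2-Eb1 at 512 and H2-Ab1 at 407 CPM per kb followed. H2-DMb2 at 85.9, H2-Ob at 67.1, H2-DMa at 41.9, H2-DMb1 at 31.0, H2-Oa at 23.8 and Ciita at 20.9 CPM per kb came below. Neighbours lay close for H2-Aa (513.9 and 519.6 CPM per kb) and H2-Eb1 (513.6 and 510.3), and overlapped for H2-Oa (24.3 and 23.3) and Ciita (17.4 and 24.3). In the KOKI cultures H2-Eb1 came before H2-Aa, at 409 against 377 CPM per kb. In the femoral controls Cd74 led at 92.5 CPM per kb, H2-DMa (28.6) stood next to H2-Eb1 (31.1), and H2-Oa, H2-Ob, H2-DMb2 and Ciita lay between 3.70 and 2.15 CPM per kb. Counts of the 10 genes together made up 0.288 to 0.502% of all counts in the cultures and 0.0491 to 0.0660% in the femoral pools.

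**Figure D1:**
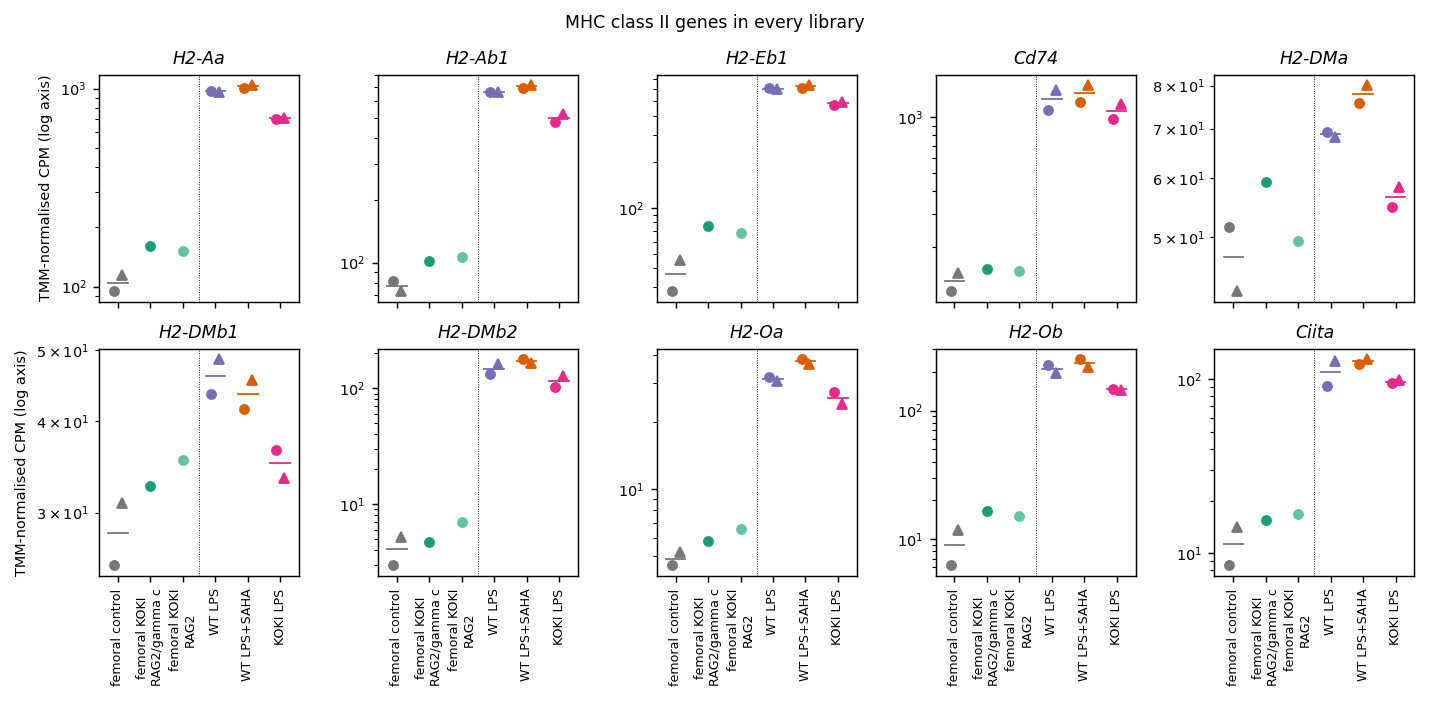
Each panel plots 1 gene in CPM (log axis) for the 10 libraries by group, with circles for replicate 1, triangles for replicate 2 and a line at the mean of groups of 2. All 6 cultures lie above all 4 femoral pools in 8 panels, as they did for 15.7% of 20204 genes. In H2-DMa, with 54.9 CPM in the lowest culture and 59.3 CPM in the highest pool, and in H2-DMb1, with 33.5 and 35.4 CPM, they overlap.

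The first comparison set the wild-type LPS cultures beside the femoral control pools. Tissue, culture, genotype and cell content differ between them and cannot be told apart, and in bulk RNA fewer cells of a type and less RNA per cell cannot be told apart. All 10 genes were higher in the cultures (edgeR quasi-likelihood test, Benjamini-Hochberg adjusted p under 0.05), where 21.1% of 20204 genes tested were called higher and 42.4% in either direction. The median log2 fold change of the 10 was 3.25, beside -0.02 over all genes tested. The increase ranged from 0.56 for H2-DMa to 5.19 for H2-DMb2, so the members did not move by one common amount.

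The I-A and I-E chains are the peptide-binding molecules themselves. H2-Aa (chr17:34282744-34287827) measured 94.6 and 114 CPM in the femoral controls, 160.2 CPM in the KOKI pool lacking RAG2 and gamma c, 152 CPM in the KOKI pool lacking RAG2, 974 and 963 CPM with LPS, 1011 and 1044 CPM with LPS and SAHA, and 700.3 and 713 CPM in KOKI cultures. H2-Ab1 (chr17:34263209-34269418) measured 81.8 and 72.8 CPM in the controls, 101 and 106 CPM in the KOKI pools, 667 and 665 CPM with LPS, 694 and 719 CPM with SAHA, and 474 and 520.2 CPM in KOKI cultures. In both genes the SAHA libraries were the highest, the KOKI cultures lay below every wild-type culture, and the cultures lay far above the femoral pools. H2-Eb1 (chr17:34305877-34316199) measured 28.2 and 45.3 CPM in the controls, 75.5 and 68.1 CPM in the KOKI pools, 608 and 604 CPM with LPS, 613 and 642 CPM with SAHA, and 470.3 and 499 CPM in KOKI cultures. Its difference between wild-type LPS cultures and femoral controls was log2 4.06 (SE 0.27, edgeR adjusted p = 2.5e-07), that of H2-Aa log2 3.23 (SE 0.23, edgeR adjusted p = 5.27e-07) and that of H2-Ab1 log2 3.12 (SE 0.22, edgeR adjusted p = 4.42e-07). Per length, H2-Aa stood at 1.20 to 1.29 times H2-Ab1 in the 6 cultures and at 1.01 to 1.38 times in the femoral pools, which overlap. H2-Eb1 stood at 1.22 to 1.37 times H2-Ab1 in the cultures and at 0.477 to 1.03 times in the femoral pools, which do not overlap.

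Cd74 (chr18:60803848-60812646) measured 115 and 145 CPM in the femoral controls, 151.5 and 149 CPM in the KOKI pools, 1099 and 1398 CPM with LPS, 1212.5 and 1491.5 CPM with SAHA, and 975 and 1177 CPM in KOKI cultures. Libraries of 1 cultured group differed more than for the I-A and I-E genes, and the 3 cultured groups overlapped except for KOKI below SAHA. The gene was 9.67-fold higher in LPS cultures than in femoral controls (log2 3.27, SE 0.27, edgeR adjusted p = 1.83e-06). Per length, it stood at 1.91 to 2.63 times H2-Ab1 in the cultures and at 1.63 to 2.32 times in the femoral pools.

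The H2-DM genes, whose product loads peptides, split. H2-DMa (chr17:34135182-34139101), the alpha chain, measured 51.6 and 42.2 CPM in the femoral controls, 59.3 and 49.4 CPM in the KOKI pools, 69.2 and 68.3 CPM with LPS, 75.8 and 80.2 CPM with SAHA, and 54.9 and 58.3 CPM in KOKI cultures. H2-DMb1 (chr17:34153072-34160230), a beta chain, measured 25.4 and 30.9 CPM in the controls, 32.7 and 35.4 CPM in the KOKI pools, 43.6 and 48.6 CPM with LPS, 41.6 and 45.5 CPM with SAHA, and 36.5 and 33.5 CPM in KOKI cultures. For both genes the KOKI cultures overlapped the femoral KOKI pools, and the step from femoral controls to LPS cultures was 1.48-fold for H2-DMa (log2 0.56, SE 0.17, edgeR adjusted p = 0.0171) and 1.65-fold for H2-DMb1 (log2 0.73, SE 0.17, edgeR adjusted p = 0.00489). The H2-DMa call was lost in 5 of 7 other settings, among them without femoral control replicate 2 (log2 0.29, edgeR adjusted p = 0.182), without LPS replicate 1 (0.47, edgeR adjusted p = 0.137) and without LPS replicate 2 (0.57, edgeR adjusted p = 0.0606).

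The other beta chain gene, H2-DMb2 (chr17:34143307-34151553), lies beside H2-DMb1. It measured 2.95 and 5.22 CPM in the femoral controls (101 and 172 counts), 4.69 and 7.02 CPM in the KOKI pools, 133 and 161 CPM with LPS, 179 and 166 CPM with SAHA, and 103 and 128 CPM in KOKI cultures. It was 36.4-fold higher in LPS cultures than in femoral controls (log2 5.19, SE 0.28, edgeR adjusted p = 5.81e-08), the largest difference among the 10. Per length, H2-DMb2 made up 9.15 to 14.7% of the sum of both beta genes in the femoral pools and 71.0 to 78.9% in the cultures, with no overlap. The beta genes together stood at 0.599 to 0.927 times H2-DMa per length in the femoral pools and at 2.54 to 3.05 times in the cultures. Of the distinct 50-base stretches in GENCODE M21 transcripts, 22.7% of those of H2-DMb1 and 21.2% of those of H2-DMb2 occur in the other gene. Over all 297 other genes that share any, 25.9% of those of H2-DMb2 occur elsewhere. How reads matching several genes were counted is not given in the sources used here, so the split is uncertain.

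**Figure D2:**
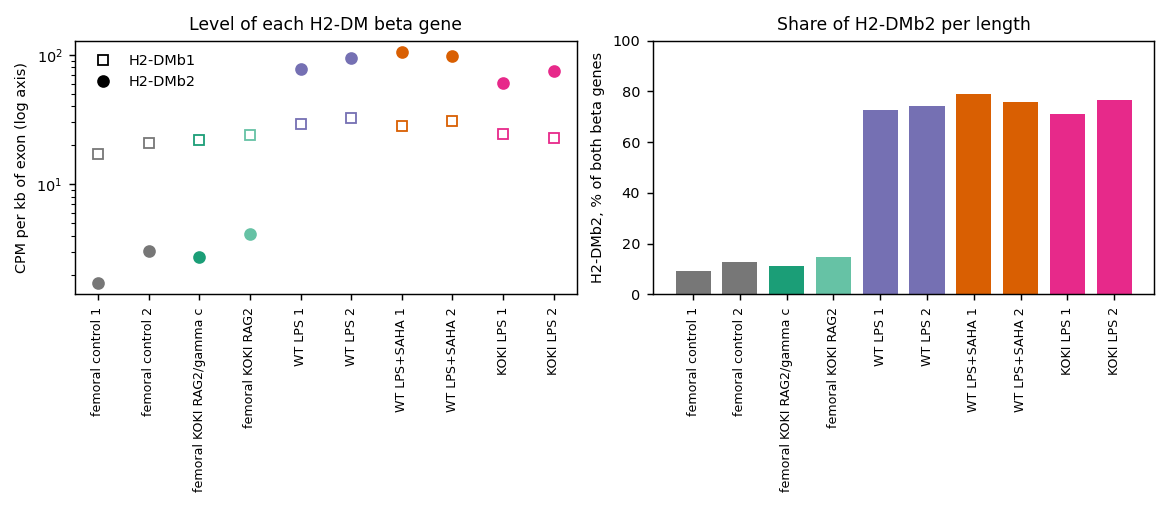
The left panel plots H2-DMb1 (open squares) and H2-DMb2 (filled circles) in CPM per kb of exon (log axis) in each library, and the right panel plots the share of H2-DMb2 in the sum of both, in percent, as bars from 0. H2-DMb2 lies below H2-DMb1 in the 4 femoral pools and above it in the 6 cultures, where its share is 71.0 to 78.9%.

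H2-DO is the inhibitor of H2-DM. H2-Oa (chr17:34092340-34095234), the alpha chain, measured 4.52 and 5.19 CPM in the femoral controls, 5.85 and 6.59 CPM in the KOKI pools, 31.9 and 30.6 CPM with LPS, 38.4 and 36.5 CPM with SAHA, and 27.4 and 24.0 CPM in KOKI cultures. H2-Ob (chr17:34238903-34245907), the beta chain, measured 6.18 and 11.8 CPM in the controls, 16.4 and 14.9 CPM in the KOKI pools, 227 and 196 CPM with LPS, 253 and 221 CPM with SAHA, and 148 and 144 CPM in KOKI cultures. Cultures and femoral pools were far apart for both chains, and the KOKI cultures were the lowest cultures for both. H2-Ob was 23.8-fold higher in LPS cultures than in femoral controls (log2 4.58, SE 0.29, edgeR adjusted p = 1.9e-07) and H2-Oa 6.50-fold (log2 2.70, SE 0.20, edgeR adjusted p = 6.11e-07). Per length, H2-Ob stood at 0.570 to 1.17 times H2-Oa in the femoral pools and at 2.25 to 2.96 times in the cultures. H2-Oa stood at 0.109 to 0.167 times H2-DMa in the femoral pools and at 0.514 to 0.633 times in the cultures. Exons of H2-Oa share 200 bases with BC051537 on the opposite strand, which had 2 to 37 counts per library, and without a stated strand setting such reads cannot be assigned.

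Ciita (chr16:10488178-10527564), the coactivator, was the lowest of the 10 per length in each of the 5 groups, counting the femoral KOKI pools as 1 group. It measured 8.52 and 14.1 CPM in the femoral controls, 15.6 and 16.8 CPM in the KOKI pools, 91.6 and 128 CPM with LPS, 122 and 131 CPM with SAHA, and 95.3 and 98.7 CPM in KOKI cultures. The LPS libraries of this gene spanned the KOKI values and reached into the SAHA values. It was 9.82-fold higher in LPS cultures than in femoral controls (log2 3.30, SE 0.25, edgeR adjusted p = 9.45e-07). Exons of Ciita share 111 bases with Dexi on the opposite strand, which had 77 to 218 counts per library. Of all 20204 genes tested, 21.1% were called higher and 21.3% lower in LPS cultures than in femoral controls. Of 10 genes for factors that act at class II promoters with Ciita, 1 was higher and 4 were lower. Rfx5, the DNA-binding RFX subunit, was the higher one (log2 1.43, SE 0.20, edgeR adjusted p = 0.000149). The lower ones included the acetyltransferase genes Kat2b (-1.54), Ep300 (-1.51) and Crebbp (-1.01).

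In LPS cultures against femoral controls, 21.1% of all genes tested were called higher and 21.3% lower. Of the 12 listed genes for factors known to act on Ciita, 8 were higher and 2 lower. The B cell factors Pax5 (log2 10.57), Ebf1 (5.47) and Irf4 (4.95) led the higher ones. The myeloid and B cell factor Spi1 (PU.1) was lower (-1.71, SE 0.17, edgeR adjusted p = 8.88e-06), as was Irf8 (-0.66, SE 0.20, edgeR adjusted p = 0.0196). Pax5 and Irf4 also belong to the B cell and plasmablast marker lists. Of 15 genes for loading and turnover of class II molecules, 3 were higher, near the share over all genes. They were Cd83 (5.17), which opposes class II turnover, the protease gene Lgmn (1.18) and the protease inhibitor gene Cstb (0.83). Another 6 were lower, led by the endosomal tetraspanin gene Cd63 (-6.99), the cathepsin gene Ctsl (-4.40) and the ubiquitin ligase gene March8 (-4.40).

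Between H2-Oa and H2-Ea-ps, 252.3 kb of chromosome 17 hold 20 genes of the deposited table, of which 19 were tested. The 8 members there were all higher in LPS cultures than in femoral controls, as were 8 of the 11 other genes, and none was lower. Of all genes tested, 21.1% were called higher and 21.3% lower. The 8 other genes include Gm20496, Gm20513 and Gm20506, with low means of 0.398, 4.27 and 6.00 CPM with LPS. Their means were 0, 0.357 and 0.0899 CPM in the femoral controls. Gm20506 also lies within the GENCODE M21 span of H2-Ob, on the same strand. Among the 11, the antigen-processing genes were also higher, with Psmb9 at log2 1.58, Psmb8 at 1.42, Tap1 at 1.21 and Tap2 at 0.55. Brd2, a bromodomain gene, had log2 0.24 (edgeR adjusted p = 0.32). H2-Eb2, a second I-E beta gene, had 12 and 13 counts in the femoral controls and 1823 and 1303 in the LPS cultures, a difference of log2 7.40 (SE 0.35, edgeR adjusted p = 2.71e-08). The alpha chain partner of H2-Eb1 is listed as the pseudogene H2-Ea-ps, which has a promoter deletion in C57BL/6 mice. It had 0 to 13 counts in each of the 10 libraries and did not pass the filter in the splenic fit.

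**Figure D3:**
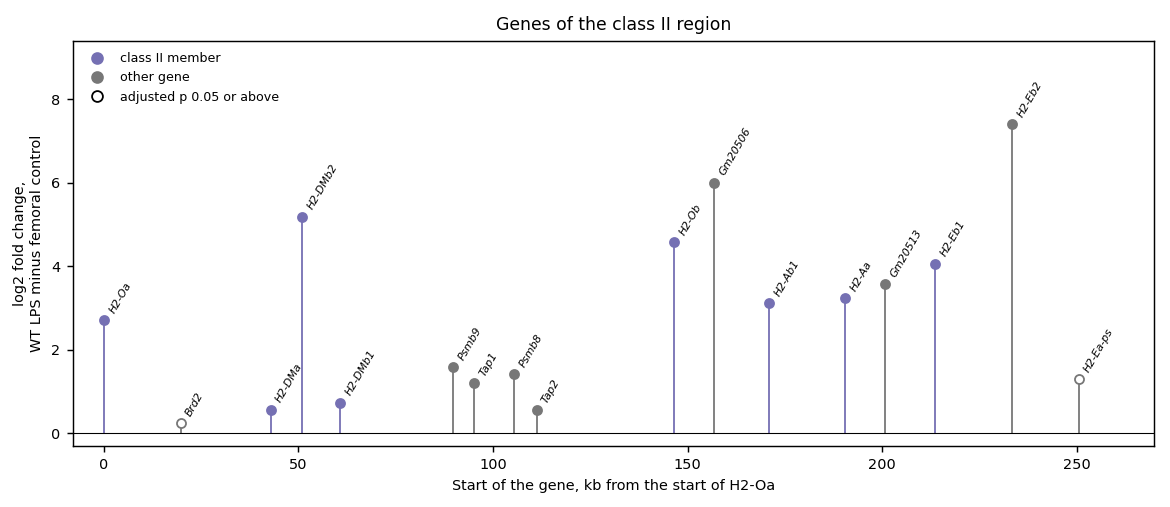
Log2 fold change between wild-type LPS cultures and femoral controls (y axis) is plotted against the start of each gene in kb from the start of H2-Oa (x axis) for 17 of the 19 genes tested, leaving out 2 with no counts in the femoral controls. Class II genes (purple) range from 0.56 for H2-DMa to 5.19 for H2-DMb2, and the grey point of H2-Eb2 is at 7.40.

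Adding SAHA to wild-type LPS cultures addressed the effect of histone deacetylase inhibition. By edgeR's quasi-likelihood test 0 of the 10 genes were called, where 4.64% of 15342 genes tested were called (0.952% higher and 3.69% lower). One gene, H2-Oa, had an unadjusted p under 0.05 (log2 0.32, SE 0.13, edgeR adjusted p = 0.181), where 25.3% of all genes tested had one, and DESeq2 called 0, where it called 11.2% of all genes. Fold changes were positive for 9 genes and negative for H2-DMb1 (-0.03, SE 0.13, edgeR adjusted p = 0.917), with a median of 0.19 beside 0.02 over all genes. H2-DMb2 (0.29, SE 0.17), Ciita (0.26, SE 0.18) and H2-DMa (0.24, SE 0.12) followed H2-Oa in size. Both SAHA libraries lay above both LPS libraries for 6 of the 10 genes (H2-Aa, H2-Ab1, H2-Eb1, H2-DMa, H2-DMb2 and H2-Oa), as they did for 24.7% of all genes tested, and below both for 0, against 31.8%. The median of the 10 was 0.15 without SAHA replicate 2, the library with counts in the most olfactory receptor genes. It was 0.19 without SAHA replicate 1, 0.13 without LPS replicate 1 and 0.17 without LPS replicate 2. With a block for replicate number the median was 0.20. In the same libraries B cell markers summed to 2892 and 2974 CPM with LPS and 3500.4 and 3570.0 CPM with SAHA, plasmablast markers to 605 and 621 CPM against 399 and 403 CPM, and macrophage and monocyte markers to 30.6 and 33.8 CPM against 52.4 and 52.9 CPM. Of the 12 macrophage and monocyte markers 7 were tested, all 7 had positive fold changes with a median of 0.54, and 1 was called higher. Of the 8 B cell markers 2 were called higher, and of the 6 plasmablast markers 3 were called lower. The part of these markers in the fold changes was not tested.

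The KOKI cultures were set beside the wild-type LPS cultures, which also served in the SAHA comparison. By edgeR's quasi-likelihood test 0 of the 10 genes were called, where 4.08% of genes were called (2.25% higher and 1.83% lower). Of the 10, 4 had an unadjusted p under 0.05, where 17.5% of all genes tested had one, and DESeq2 called 3 lower, where it called 7.15% of all genes in either direction. The fold changes of all 10 were negative, from -0.50 for H2-Ob (SE 0.15, edgeR adjusted p = 0.122) to -0.14 for Ciita (SE 0.18, edgeR adjusted p = 0.754), with a median of -0.30 beside -0.02 over all genes. H2-Aa had -0.42 (SE 0.17, edgeR adjusted p = 0.251), H2-Ab1 -0.38 (SE 0.16) and H2-DMb1 -0.36 (SE 0.13). Both KOKI libraries lay below both LPS libraries for 8 genes, Cd74 and Ciita being the exceptions, as they did for 26.9% of all genes tested, and above both for 0, against 20.6%. Leaving out KOKI replicate 2, which had the Xist counts, gave 0 called of the 10 and a median of -0.33, where 1.54% of 17742 genes were called. Without LPS replicate 2 the fold changes of Cd74 (0.02) and Ciita (0.13) were positive. Plasmablast markers summed to 1400.3 and 1238 CPM in the KOKI cultures against 605 and 621 CPM with LPS, macrophage and monocyte markers to 16.2 and 16.1 CPM against 30.6 and 33.8 CPM, and B cell markers to 2619.5 and 2795 CPM against 2892 and 2974 CPM. Their part in the fold changes was not tested.

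Against the SAHA cultures, the matching control if the treatment label of the KOKI cultures is right, 5 of the 10 genes were lower in KOKI, where 9.64% of 15342 genes were called lower and 23.7% in either direction. These were H2-Ob (log2 -0.71, SE 0.15, edgeR adjusted p = 0.0122), H2-Oa (-0.56, SE 0.13, edgeR adjusted p = 0.0206), H2-DMa (-0.48, SE 0.12, edgeR adjusted p = 0.0243), H2-DMb2 (-0.60, SE 0.17, edgeR adjusted p = 0.0373) and H2-Aa (-0.56, SE 0.17, edgeR adjusted p = 0.0468). Both H2-DO genes passed, as did the H2-DM alpha chain gene, 1 H2-DM beta chain gene and the I-A alpha chain gene. H2-Ab1 missed the threshold (-0.52, SE 0.16, edgeR adjusted p = 0.0519), and Ciita had -0.40 (SE 0.18, edgeR adjusted p = 0.133), H2-Eb1 -0.39, Cd74 -0.35 and H2-DMb1 -0.33. Both KOKI libraries lay below both SAHA libraries for all 10 genes, as they did for 32.2% of all genes tested, and above for 0, against 33.7%. The median was -0.50 beside -0.03 over all genes. Leaving out 1 library gave 1 called member without SAHA replicate 2 and 0 without SAHA replicate 1, KOKI replicate 1 or KOKI replicate 2, in fits that called 9.6 to 13.7% of all genes. The fold changes of the 10 stayed negative in those 4 fits. Without KOKI replicate 2 the fold change of H2-Ob was -0.67, that of H2-Aa -0.55 and that of H2-Oa -0.45. The marker sums given above move with this comparison. All 6 plasmablast markers were higher in KOKI (median log2 2.46). The 8 B cell markers all had negative fold changes, with 3 called lower and a median of -0.41, and so did the 7 macrophage and monocyte markers tested, with 4 called lower and a median of -1.62. The part of these markers in the fold changes was not tested.

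**Figure D4:**
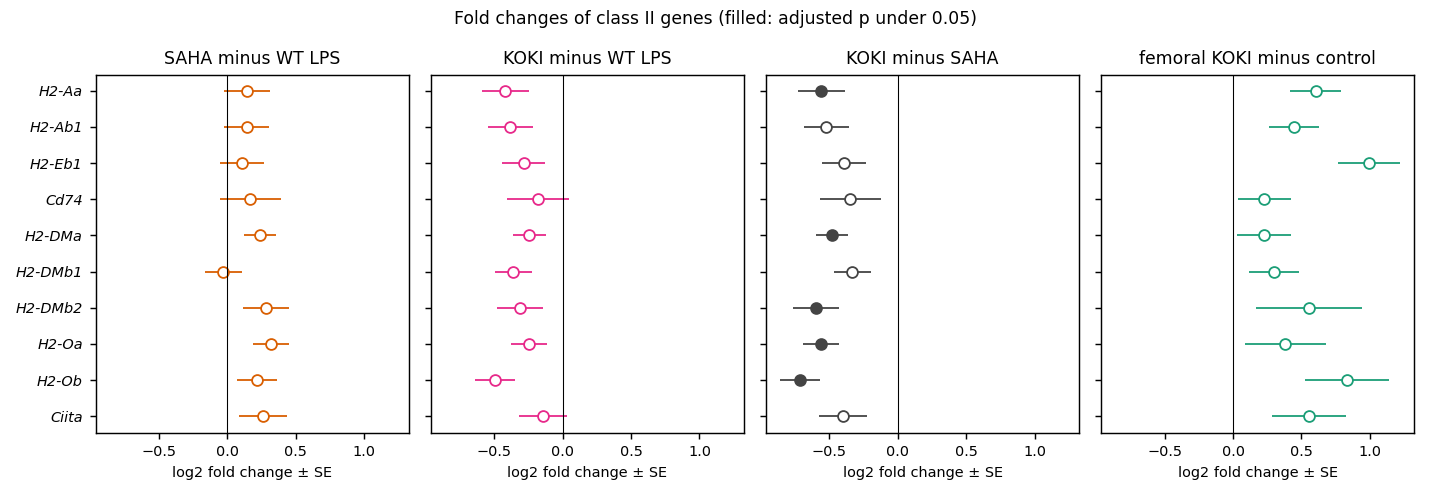
Log2 fold changes (x axis) with their SE as bars are plotted for the 10 genes (y axis) in 4 comparisons, with filled points where the edgeR adjusted p is under 0.05. The 5 filled points are all in the KOKI minus SAHA panel, all 10 points are left of 0 in both KOKI culture panels, and all 10 are right of 0 in the femoral panel.

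In the femoral pools KOKI was compared with the controls, with a different background (RAG2 deficiency alone) in 1 of the 2 KOKI pools. By edgeR's quasi-likelihood test 0 of the 10 genes were called, where 0.0301% of 16624 genes were called. Of the 10, 4 had an unadjusted p under 0.05, where 16.2% of all genes tested had one, and DESeq2 called 1, where it called 4.14% of all genes. The fold changes of all 10 were positive, with a median of 0.50 beside -0.02 over all genes. H2-Eb1 had log2 1.00 (SE 0.23, edgeR adjusted p = 0.128), H2-Ob 0.83 (SE 0.31, edgeR adjusted p = 0.25), H2-Aa 0.61 (SE 0.19, edgeR adjusted p = 0.193) and H2-Ab1 0.44 (SE 0.18, edgeR adjusted p = 0.289). The smallest were those of Cd74 and H2-DMa, both 0.23. Both KOKI pools lay above both controls for 8 genes, H2-DMa and H2-DMb2 being the exceptions, as they did for 23.6% of all genes tested, and below both for 0, against 25.8%. Leaving out 1 control pool gave calls: H2-Aa, H2-Ab1 and H2-Eb1 were higher without control replicate 1, and H2-Aa, H2-Eb1, H2-Ob and Ciita without control replicate 2. Those fits called 2114 genes (12.2%) and 3456 genes (19.9%) in all. With the KOKI pool of the controls' own background alone, the median was 0.38 and 0 genes were called.

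Markers of cells that carry class II were counted in the same pools. All 12 dendritic cell markers had counts in each pool, and their summed level was 304 and 386 CPM in the controls and 438 and 465 CPM in the KOKI pools. Fold changes were positive for 7 of the 12 and negative for 5, with a median of 0.29 and 0 called by edgeR. Bst2, 1 of the 7, had 36.2 and 73.8 CPM in the controls and 106 and 127 CPM in the KOKI pools. Its rise is part of the rise in the summed level. The 5 that averaged lower in the KOKI pools were Itgax, Zbtb46, Clec9a, Ccr7 and Fscn1. The lowest edgeR adjusted p of the 12 was 0.163. Macrophage and monocyte markers summed to 4375 and 5303 CPM in the controls and to 6389.5 and 4959 CPM in the KOKI pools, which overlap. B cell markers summed to 12.0 and 12.8 CPM in the controls and to 14.3 and 11.6 CPM in the KOKI pools. Spib, which encodes a factor of B cells and plasmacytoid dendritic cells, had log2 0.95 (SE 0.25, edgeR adjusted p = 0.159). The part of these markers in the class II values was not tested.

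The KOKI fold change was negative in culture, against LPS, and positive in the femur for all 10 genes, and the difference of these effects was tested directly. By edgeR's quasi-likelihood test 0 of the 10 were called, where 0.846% of 20204 genes were called (0.431% lower). Of the 10, 7 had an unadjusted p under 0.05, where 13.1% of all genes tested had one, and DESeq2 called 4, where it called 2.69% of all genes. The difference, splenic minus femoral, was largest for H2-Ob (log2 -1.34, SE 0.36, edgeR adjusted p = 0.122) and H2-Eb1 (-1.29, SE 0.33, edgeR adjusted p = 0.108), and the median was -0.78 beside -0.02 over all genes. Without femoral control replicate 2, the differences of H2-Eb1 (-1.63) and H2-Ob (-1.83) were called, in a fit that called 2.85% of 19827 genes.

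Among genes that act on Ciita, those called in the splenic comparisons moved in different directions. Prdm1 (Blimp-1), a repressor of Ciita in plasma cells, averaged 32.4 CPM with LPS, 11.7 CPM with SAHA and 83.7 CPM in KOKI cultures. It was lower with SAHA (log2 -1.42, SE 0.13, edgeR adjusted p = 0.0185) and higher in KOKI against LPS (1.41, SE 0.12, edgeR adjusted p = 0.000912). Ciita had log2 0.26 with SAHA (SE 0.18, edgeR adjusted p = 0.401) and -0.14 in KOKI against LPS (SE 0.18, edgeR adjusted p = 0.754). Prdm1 is also on the plasmablast marker list, and its part in the Ciita values was not tested. Bcl6, a germinal centre repressor, was higher with SAHA (1.16, SE 0.16, edgeR adjusted p = 0.023) and with Prdm1 made up the 2 called of 12 genes in that comparison. SAHA called 4.64% of all genes tested. KOKI against SAHA had 2 higher, Prdm1 (2.82) and Irf4 (0.71), and 3 lower, Bcl6 (-1.32), Pax5 (-0.67) and Ebf1 (-0.44). Of all genes tested, 14.1% were called higher and 9.64% lower there. In the femoral pools 0 of 11 tested genes were called by edgeR. Of the 11, 1 had an unadjusted p under 0.05, where 16.2% of all genes tested had one.

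Of the 10 promoter factor genes, edgeR called 0 with SAHA and 0 in KOKI against LPS. In each, 2 had an unadjusted p under 0.05, where 25.3% and 17.5% of all genes tested had one. In KOKI against SAHA, Nfyb, an NF-Y subunit, was higher (0.53, SE 0.15, edgeR adjusted p = 0.0379) and Crebbp was lower (-0.52, SE 0.15, edgeR adjusted p = 0.0434). In the loading and turnover list of 15, edgeR called 0 with SAHA. There 2 had an unadjusted p under 0.05, against 25.3% of all genes tested. In KOKI against LPS edgeR called 1 of the 15, where it called 4.08% of all genes. That gene was March1, which encodes a ubiquitin ligase that removes class II from the surface of B cells and dendritic cells. March1 averaged 109 CPM with LPS, 171 CPM with SAHA (log2 0.70, SE 0.17, edgeR adjusted p = 0.0595) and 56.2 CPM in KOKI cultures (-0.92, SE 0.18, edgeR adjusted p = 0.0284), and it was lower in KOKI than with SAHA (-1.62, SE 0.18, edgeR adjusted p = 0.00112). Ifi30, a thiol reductase of endosomes, was higher in KOKI than with SAHA (0.72, SE 0.15, edgeR adjusted p = 0.0141). Cd83 had log2 -0.12 with SAHA (edgeR adjusted p = 0.638), 0.19 in KOKI against LPS (edgeR adjusted p = 0.546) and 0.31 in KOKI against SAHA (edgeR adjusted p = 0.137).

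H2-Eb2 had 77.8 and 48.7 CPM with LPS, 112 and 77.7 CPM with SAHA, and 31.5 and 35.5 CPM in KOKI cultures. The KOKI libraries were below the other 4, and the SAHA and LPS libraries overlapped by a narrow margin. Its fold change was log2 0.64 with SAHA (SE 0.24, edgeR adjusted p = 0.146), -0.88 in KOKI against LPS (SE 0.24, edgeR adjusted p = 0.101) and -1.52 in KOKI against SAHA (SE 0.25, edgeR adjusted p = 0.00519).

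The pattern of the 4 most abundant members over the 10 libraries was compared with that of each of 20204 genes, as the root mean square difference of centred log2 CPM from the mean profile of H2-Aa, H2-Ab1, H2-Eb1 and Cd74. The 5 closest genes outside these 4 were Ciita at 0.153, Lpxn at 0.178, Tnfrsf13b at 0.189, Relb at 0.192 and Fcrla at 0.207. Ciita was thus nearer than H2-Eb1 itself, at 0.275, which is part of the mean. H2-Oa at 0.307 and H2-Ob at 0.540 were further away, and H2-DMb2 at 0.922, H2-DMb1 at 1.30 and H2-DMa at 1.30 furthest. The measure is dominated by the step between femoral pools and cultures, which was log2 3.04 in mean log2 CPM for Ciita and 0.42 for H2-DMa.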

How the data were processed

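The values the authors deposited are unnormalised counts of reads per gene. Per the labels' protocols, a stranded total RNA kit was used on 500 ng of RNA. STAR 2.4.0a, featureCounts (Subread 1.4.6-p1) and mm10 (GRCm38) are named in the submitters' processing notes. How strand and reads matching several places were handled is not given in these sources. Spike-in and phiX entries (100, with 1 to 17 counts per library) were left out. Total counts were 18614742 to 29314068 per library.

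Tests were edgeR 4.0.16 quasi-likelihood F tests (R 4.3.3, limma 3.58.1) with TMM, filterByExpr at its defaults (minimum count 10, minimum total 15) and Benjamini-Hochberg adjustment over all genes tested, called at 0.05. The 3 splenic groups (6 libraries) shared 1 fit, the 4 femoral libraries another, and comparisons across tissues used all 10 libraries. Fold changes come from each fit, and levels are TMM-normalised CPM over all 10 libraries. Alternatives were other size factors, no filter, DESeq2 1.42.0, other sets of libraries, a replicate block and leaving out each library. The fits were checked on simulated counts, in which many changed genes were not called, so a gene not called may still differ. Replicates differed by 92.59 to 160.7 in chi-square per degree of freedom. The 2 femoral KOKI pools, of different backgrounds, differed by 44.05, so none was a copy. The members and gene lists were chosen with earlier results of these data known. Genes named were the 10 members, up to 3 called genes per list and direction (1 such gene is not reported here), the 5 closest in pattern, and H2-Ea-ps, Prdm1, Cd83, H2-K1 and Nlrc5; Spib, H2-Eb2 where not called, the genes of the class II region and values of single marker genes were named after their values were seen. RefSeq promoter windows span 250 bases before to 50 after the start.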

Additional observations from a re-analysis of the deposited data

How the results depend on the processing

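The fold changes of the 10 members kept direction and side of the threshold in 106 of 110 refits for SAHA, 104 of 110 for KOKI against LPS, 78 of 110 for KOKI against SAHA (25 lost and 7 gained the call), 80 of 90 for femoral KOKI (10 gained it), 65 of 70 for spleen against femur (5 lost it, all H2-DMa) and 82 of 90 for the difference of effects (8 gained it). Exceptions in direction were Cd74 and H2-DMb1 with SAHA (-0.0064 to 0.34 and -0.12 to 0.045 on leaving out 1 library) and Cd74 and Ciita in KOKI against LPS (-0.35 to 0.022 and -0.37 to 0.13). Members called in KOKI against LPS numbered 3 by DESeq2 and 1 with the replicate block. In KOKI against SAHA they numbered 0 when all 10 libraries shared the fit and 0 to 1 on leaving out 1 library. In femoral KOKI they numbered 1 with no filter, by DESeq2 and with the replicate block, and 0 to 4 on leaving out 1 library. For the difference of effects they numbered 2 with no filter, 4 by DESeq2 and 0 to 2 on leaving out 1 library.

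Calls over all genes moved more. SAHA called 712 genes, 1970 with no filter, 1721 by DESeq2, 211 with all 10 libraries, 0 with the 4 compared libraries alone, 3413 with the replicate block and 0 to 290 on leaving out 1 library. KOKI against LPS called 626, 1254 with no filter, 1097 by DESeq2, 1313 with the replicate block and 270 to 332 on leaving out 1 library, and KOKI against SAHA called 3639, and 1703 to 2235 on leaving out 1 library. Femoral KOKI called 5, 0 with DESeq2 size factors, 662 with no filter, 688 by DESeq2, 869 with the replicate block, 0 with the matched KOKI pool alone and 13 to 3456 on leaving out 1 library. The difference of effects called 171, 950 with no filter, 543 by DESeq2 and 45 to 566 on leaving out 1 library. The causes were not tested. DESeq2 size factors moved the median of all genes between spleen and femur from -0.02 to -0.17. The labels do not say that shared replicate numbers mark shared animals, and the correlation of replicate differences was 0.36 for LPS with SAHA, 0.08 for LPS with KOKI and 0.09 for SAHA with KOKI. A group left with 1 library was assumed to vary like the others. Leaving immunoglobulin genes out, an alternative chosen after seeing the data, changed no member call. The lowest count of a member was 101, for H2-DMb2 in a femoral control.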

Other observations

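MHC class I presentation, the parallel pathway that shows cytosolic peptides to CD8+ T cells, was tested in the same fits with a list of 19 genes. With SAHA 2 of the 19 were lower, where 3.69% of all genes tested were called lower, and the median was -0.20. The 2 were the peptide-loading disulfide isomerase gene Pdia3 (log2 -0.82, SE 0.16, edgeR adjusted p = 0.0378) and the immunoproteasome gene Psmb10 (-0.62, SE 0.12, edgeR adjusted p = 0.0379). In KOKI against LPS edgeR called 0 of 19, with 4 at an unadjusted p under 0.05, where 17.5% of all genes had one. In KOKI against SAHA 4 were higher, led by Pdia3 (1.14), the chaperone gene Canx (0.84) and Psmb8 (0.66), where 14.1% of all genes tested were called higher. All 6 plasmablast markers were higher in the same comparison, and their part in these fold changes was not tested. The class I heavy chain gene H2-K1 averaged 713 CPM with LPS, 744 CPM with SAHA and 693 CPM in KOKI cultures, with edgeR adjusted p from 0.708 to 0.997 in the 3 splenic comparisons. Nlrc5, the class I counterpart of Ciita, had log2 -0.20 with SAHA (edgeR adjusted p = 0.511), -0.64 in KOKI against LPS (edgeR adjusted p = 0.0973) and -0.43 in KOKI against SAHA (edgeR adjusted p = 0.107). Between LPS cultures and femoral controls 13 of the 19 were higher and 0 lower, with a median of 1.17, where 21.1% of all genes tested were called higher. H2-Q6 (3.08), H2-Q4 (2.00) and H2-Q7 (1.82) led them, and reads of these similar genes may be split between copies.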
